A study of Mus musculus with 4 samples.

Results

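The inhibitors of cyclin-dependent kinases (CDK) and the p53 axis above them were examined in cultured mouse spermatogonia. The set held 8 genes chosen by name, with earlier results of these data known. They were the CIP/KIP genes Cdkn1a and Cdkn1b, the INK4 genes Cdkn2a, Cdkn2b, Cdkn2c and Cdkn2d, and Trp53 and Mdm2. All 8 were present among the 55421 genes of the deposited count table, and all 8 were among the 20232 genes tested. CDKs drive the cell cycle when bound to cyclins. INK4 proteins bind CDK4 and CDK6 and keep D-type cyclins from activating them, whereas CIP/KIP proteins bind complexes of cyclins with CDKs, above all those of CDK2. The transcription factor p53, encoded by Trp53, activates Cdkn1a and Mdm2, and the MDM2 protein marks p53 for degradation. In the testis, the exit of spermatogonia from mitotic divisions into meiosis goes together with changes of several of these inhibitors.

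Transcripts were measured by bulk RNA-seq in primary cultures of spermatogonia (SSC culture) from CD1 mice, set up from testes of pups of 6 days of age and supplemented with N2, bFGF and GDNF, the growth factors at 10 ng/ml each per the labels. The Veh cultures were kept in complete spermatogonial medium, and the NRRA cultures were placed in a nutrient restriction medium of 10% SSC medium and 90% of the balanced salt solution EBSS with 100 nM retinoic acid (RA). By that recipe the supplements of the medium were diluted in NRRA too, and the study's list of media gives another GDNF concentration than the labels. The study's methods give 48 h for such treatments. There were 2 Veh and 2 NRRA libraries, so nutrient restriction and RA were only measured together. Both groups were grown on feeder cells, bought irradiated mouse embryonic fibroblasts (MEF) of CF1 mice, so each library also holds feeder RNA. The study calls its sequencing replicates independent and biological in general, but the labels do not tie these libraries to mice or cultures. The p-values measure only the spread between these libraries, which may be technical.

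The libraries held between 28022265 and 31604769 counts. Stra8, a gene that RA induces in germ cells, was at 9.62 and 10.1 CPM (counts scaled to a common library size) in Veh and at 1864 and 1853 CPM in NRRA. All 13 germ cell markers passed the filter on low counts, with a summed level of 2306 and 2371 CPM in Veh and 2481 and 2479 CPM in NRRA. Of these markers 7 were lower and 4 higher, with a median log2 fold change of -0.094, between Nanos3 (-5.28) and Utf1 (-2.52) at the low end and Tex15 (0.66) and Sohlh1 (0.94) at the high end. The 27 fibroblast markers summed to 12642 and 12531 CPM in Veh and to 9615 and 9376 CPM in NRRA. Much of this sum was Fn1, at 6137 and 6080 CPM in Veh and at 4357 and 4347 CPM in NRRA. Of the 27 markers, 24 were lower in NRRA, and Col3a1 (0.61) and Pdgfra (0.98) were higher. Their median log2 fold change was -0.33, and none was at or below 3 counts in all libraries. Of 10 Sertoli cell markers, 4 were lower and none higher, and Amh and Fshr were at or below 3 counts in every library. Their sum, mostly Ctsl, was between 629 and 662 CPM in Veh and between 448 and 468 CPM in NRRA. Leydig and peritubular markers summed to between 11.0 and 12.9 CPM and macrophage markers to between 39.6 and 50.4 CPM over the 4 libraries. Genes of this set are also used by fibroblasts, and what the lower feeder sum contributed to their values was not tested. In bulk RNA, fewer cells of a type and less RNA per cell cannot be told apart.

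Of the 8 genes, Cdkn2c and Cdkn2d were higher in NRRA and the other 6 were lower (quasi-likelihood test in edgeR, adjusted p under 0.05 by Benjamini-Hochberg over all genes tested). This threshold was passed by 27.9% of all genes tested in the higher and 28.4% in the lower direction, together 56.4%, so that a call alone was common in this comparison. The Veh and NRRA libraries did not overlap in CPM for any of the 8, which held for 76.7% of all genes tested, 38.1% with NRRA higher and 38.6% with NRRA lower. With libraries scaled by their total counts only, 6962 of all genes were called higher and 4593 lower, against 5654 and 5752. The median log2 fold change of NRRA over Veh was -0.36 over the 8 genes and 0.00029 over all genes tested. Cdkn2d was the only member at or beyond a 2-fold difference, which 13.3% of all genes tested reached with a call. Of all genes tested, 2.50% had a larger log2 fold change than Cdkn2d and 8.62% a larger one than Cdkn2c. At the other end, 11.4% had a smaller one than Cdkn2b, and the corresponding share was 38.6% for Mdm2.

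**Figure D1:**
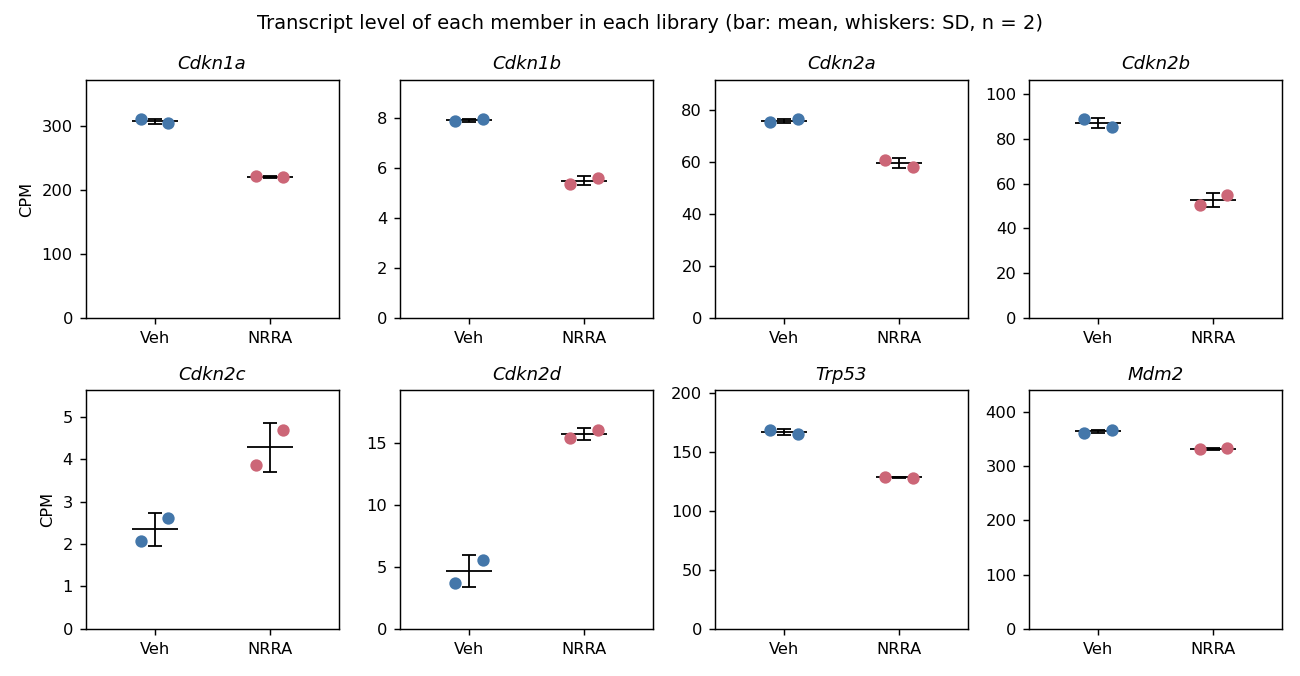
Level of each of the 8 genes in CPM (vertical axes, each starting at 0) in the 2 Veh and the 2 NRRA libraries; points are libraries, bars are means and whiskers SD (n = 2). Both NRRA points lie below both Veh points for Cdkn1a, Cdkn1b, Cdkn2a, Cdkn2b, Trp53 and Mdm2, and above them for Cdkn2c and Cdkn2d.

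Cdkn1a encodes p21, an inhibitor of CDK2 complexes that also binds PCNA and is the classic transcriptional target of p53. It was at 311 and 305 CPM in Veh and at 222 and 220 CPM in NRRA. Both NRRA libraries were far below both Veh libraries relative to the small gaps within the groups. The log2 fold change was -0.48 (SE 0.028, n = 2 per group, edgeR adjusted p 6.00e-14), which is 1.39-fold lower. The gene (ENSMUSG00000023067) lies on chromosome 17 from 29090976 to 29100727 on the plus strand of GRCm38. Of its exonic bases, 7.68% overlap a gene on the other strand that the count table does not list, AC167363.2, and the strand setting of the counting was not given in the sources used here.

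The sequence before the upstream start of Cdkn1a is shown because p53 acts on this gene through response elements in its promoter region. A p53 element is made of adjoining copies of a short palindromic unit, and its best conserved letters were searched as CATGNNNNNNCATG, which reads alike on both strands. This pattern was found in 0.464% of 32536 mouse promoter windows of 250 bases from RefSeq (GRCm38.p6), and among the 11 windows of the 8 genes it was found at 1 site, at position -48 from this Cdkn1a start. The stretch is chr17:29090729-29090975, plus strand, 5′ to 3′, with the match in capitals:
Cdkn1a upstream start: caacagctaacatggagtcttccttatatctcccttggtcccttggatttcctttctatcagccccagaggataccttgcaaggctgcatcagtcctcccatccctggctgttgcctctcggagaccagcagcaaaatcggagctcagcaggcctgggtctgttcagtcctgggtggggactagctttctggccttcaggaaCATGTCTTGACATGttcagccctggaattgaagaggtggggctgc
The match is a description of these letters in the reference, which is not of the CD1 strain, and the pattern was chosen after the window had been seen. The window of the downstream Cdkn1a start held no match, and gene counts do not separate transcripts of these starts.

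Cdkn1b encodes p27, the CIP/KIP inhibitor known for holding cells in quiescence and regulated largely through the stability of its protein. Its transcript was low, with 213 and 236 counts in Veh and 175 and 169 counts in NRRA. In CPM the values were 7.85 and 7.93 in Veh and 5.37 and 5.61 in NRRA. Both NRRA libraries were below both Veh libraries. The small gaps within the groups are a poor measure of spread at such counts, where counting error limits the precision. The log2 fold change was -0.52 (SE 0.13, n = 2 per group, edgeR adjusted p 0.00144). Cdkn1b (ENSMUSG00000003031) is at 134920401 to 134925513 on chromosome 6, plus strand. Per length it was the least abundant of the 8 genes in NRRA, at 1.21 ± 0.037 CPM per kilobase of exon (SD, n = 2), against 1.73 ± 0.012 in Veh.

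Within the CIP/KIP family the fall was not shared by the remaining gene. Cdkn1c, which encodes p57 and is not among the 8 genes, was looked up after their values were seen. It was at 23.3 and 20.4 CPM in Veh and at 43.8 and 42.7 CPM in NRRA, with a log2 fold change of 0.99 (SE 0.068; adjusted p 2.05e-12 in edgeR). Its NRRA libraries were both above its Veh libraries, opposite to Cdkn1a and Cdkn1b. Cdkn1a made up almost all of the summed CIP/KIP level of the members, which was 89.2 and 87.7 CPM per kilobase in Veh and 63.8 and 63.2 in NRRA. This level depends on the exon length used, as given with the order of the levels.

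The INK4 genes divided. Cdkn2a and Cdkn2b, neighbours on chromosome 4, were lower in NRRA, and Cdkn2c and Cdkn2d were higher. Cdkn2a encodes p16Ink4a, an inhibitor of CDK4 and CDK6, and in another reading frame p19Arf, which binds MDM2 and so stabilizes p53. It was at 75.1 and 76.3 CPM in Veh and at 60.9 and 58.1 CPM in NRRA, with a log2 fold change of -0.35 (SE 0.046, n = 2 per group, edgeR adjusted p 3.16e-07). Both NRRA values lay below both Veh values. Cdkn2b, which encodes p15Ink4b, was at 88.6 and 85.3 CPM in Veh and at 50.5 and 55.0 CPM in NRRA. This was the largest fall of the 8 genes, with a log2 fold change of -0.72 (SE 0.048, n = 2 per group, edgeR adjusted p 9.75e-13), 1.65-fold lower. The ratio of Cdkn2b to Cdkn2a counts was 1.18 and 1.12 in Veh and 0.830 and 0.946 in NRRA, so that Cdkn2b was counted more often than Cdkn2a in Veh and less often in NRRA.

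Cdkn2a (ENSMUSG00000044303) spans 89274471 to 89294653 and Cdkn2b (ENSMUSG00000073802) 89306299 to 89311039, both on the minus strand. The annotation gives Cdkn2a 2 transcripts, with 277 bases found only in that for p16Ink4a and 320 only in that for p19Arf, out of 1172 exonic bases. Gene counts add both, so the values cannot be assigned to either protein. The sequences before both Cdkn2a starts and the Cdkn2b start are shown because these neighbouring genes, which have separate annotated starts, were both lower in NRRA. Searched on both strands were the Sp1 box GGGCGG, the letters CCTCAG, the core of the motif known for STRA8, and the retinoic acid receptor site letters AGGTCA. Of all 32536 windows, 33.0% held GGGCGG, 22.4% CCTCAG and 14.0% AGGTCA. Matches on either strand are in capitals, and in the p19Arf sequence a CCTCAG on the other strand overlaps a GGGCGG. All are given 5′ to 3′ on the minus strand, as chr4:89282193-89282442 for p16Ink4a, chr4:89294654-89294869 for p19Arf and chr4:89311040-89311282 for Cdkn2b:
Cdkn2a p16Ink4a start: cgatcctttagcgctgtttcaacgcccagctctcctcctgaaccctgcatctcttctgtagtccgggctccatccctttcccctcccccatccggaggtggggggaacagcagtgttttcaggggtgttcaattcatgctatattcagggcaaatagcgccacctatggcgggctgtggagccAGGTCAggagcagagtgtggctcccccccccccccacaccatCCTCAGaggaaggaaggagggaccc
Cdkn2a p19Arf start: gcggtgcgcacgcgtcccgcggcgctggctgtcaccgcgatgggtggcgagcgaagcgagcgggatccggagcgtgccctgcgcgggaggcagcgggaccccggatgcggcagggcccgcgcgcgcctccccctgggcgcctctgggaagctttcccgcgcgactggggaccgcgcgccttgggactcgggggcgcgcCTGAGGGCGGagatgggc
Cdkn2b start: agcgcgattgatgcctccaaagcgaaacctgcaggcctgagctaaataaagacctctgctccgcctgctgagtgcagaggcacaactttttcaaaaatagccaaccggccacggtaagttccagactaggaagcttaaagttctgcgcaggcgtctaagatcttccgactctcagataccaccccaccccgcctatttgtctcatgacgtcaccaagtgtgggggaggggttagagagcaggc
The p16Ink4a stretch held 1 CCTCAG at position -25 and 1 AGGTCA at position -67. Neither was particular to Cdkn2a. On the other strand, CCTCAG was also in the window of the downstream Cdkn1a start (-52) and in that of Trp53 (-149). AGGTCA was also, on the other strand, in a window of Cdkn2c (-180), which was higher in NRRA. The p19Arf stretch held no AGGTCA, and none of the motifs searched was in the Cdkn2b stretch. The GC content of the full windows was 60% for p16Ink4a, 78.4% for p19Arf and 53.6% for Cdkn2b, beside a median of 52.4% over all windows.

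Cdkn2c, which encodes p18Ink4c, was the least abundant member in Veh, with 56 and 78 counts, against 126 and 141 counts in NRRA. In CPM it was at 2.06 and 2.62 in Veh and at 3.87 and 4.68 in NRRA. The groups did not overlap, but relative to its level the libraries of each group were further apart than for the abundant members. The log2 fold change was 0.86 (SE 0.20, n = 2 per group, edgeR adjusted p 0.000523), 1.81-fold higher, and its SE was the largest of the 8. Cdkn2c (ENSMUSG00000028551) is on the same chromosome as Cdkn2a and Cdkn2b but far from them, at 109660876 to 109667189, minus strand.

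Cdkn2d encodes p19Ink4d, an INK4 inhibitor known from meiotic male germ cells and from neurons. It was counted 101 and 165 times in Veh and 500 and 482 times in NRRA. These are 3.72 and 5.55 CPM in Veh and 15.4 and 16.0 CPM in NRRA. The Veh libraries differed from each other more than the NRRA libraries did, and both stayed far below them. The log2 fold change was 1.75 (SE 0.13, n = 2 per group, edgeR adjusted p 1.38e-11), 3.36-fold higher, and leaving out single libraries gave values between 1.50 and 2.07. The ratio of Cdkn2d to Cdkn2c counts was 1.80 and 2.12 in Veh and 3.97 and 3.42 in NRRA.

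Cdkn2d (ENSMUSG00000096472) lies on chromosome 9 from 21288410 to 21291407, minus strand. Its sequence upstream of every annotated exon is shown because this gene had the largest change of the set. It is the far end of the window of the RefSeq start, chr9:21291408-21291459 on the minus strand, with a CCAAT box on the other strand in capitals, a motif present in 33.8% of all windows:
Cdkn2d start: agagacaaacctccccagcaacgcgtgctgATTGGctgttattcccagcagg
The remainder of that window lies in an annotated exon and held 3 GGGCGG and neither CCTCAG nor AGGTCA.

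**Figure D2:**
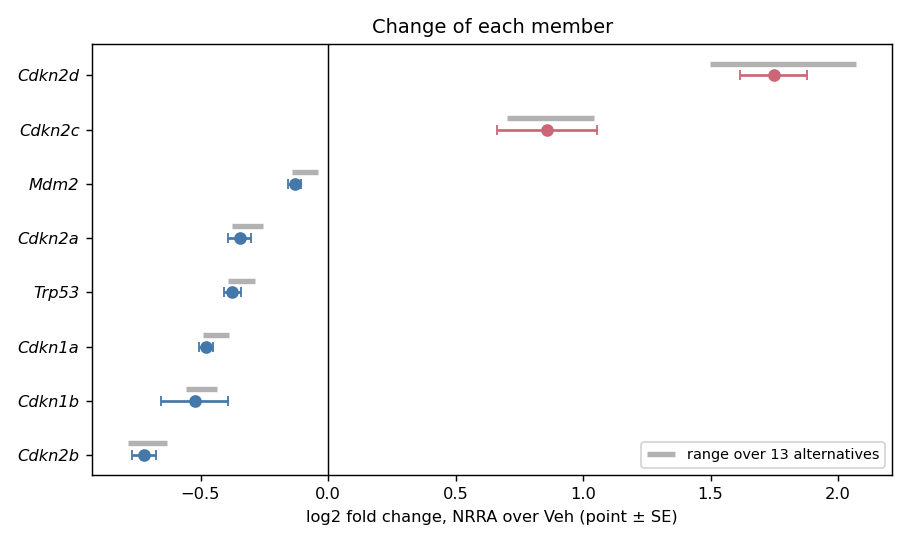
Log2 fold change of NRRA over Veh (horizontal axis) for the 8 genes, with SE as whiskers; grey bars span the values under 13 other ways of processing the counts. Cdkn2d at 1.75 and Cdkn2c at 0.86 lie right of 0, and the other 6 lie between -0.72 for Cdkn2b and -0.13 for Mdm2.

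Levels of different genes were compared per length, as CPM per kilobase of exon. In Veh the order was Cdkn1a (86.7 ± 1.08, SD, n = 2), Mdm2 (71.5 ± 0.626), Cdkn2a (64.6 ± 0.695), Cdkn2b (62.5 ± 1.66), Trp53 (41.3 ± 0.607), Cdkn2d (2.94 ± 0.818), Cdkn1b and Cdkn2c (0.872 ± 0.147). The neighbours closest as a ratio were Cdkn2a, with 64.1 and 65.1, and Cdkn2b, with 63.7 and 61.4, whose means differed by little more than the SD of Cdkn2b in Veh. These levels depended on the length used, since with the longest transcript Cdkn1a was at 148, Mdm2 at 116, Cdkn2a at 84.6 and Cdkn2b at 62.5 in Veh. Cdkn1a was higher per length than 97.6% of all genes tested by the mean of the 4 libraries, Cdkn2d than 60.1% and Cdkn2c than 29.9%. In NRRA Mdm2 (65.3 ± 0.368) came before Cdkn1a (62.3 ± 0.477) and Cdkn2c (1.59 ± 0.215) before Cdkn1b. With the length of the longest transcript in place of all exonic bases, Cdkn1a and Mdm2 were both at 106 in NRRA, so that this exchange of places depended on the length used. Trp53, at 39.3, then also came before Cdkn2b, at 38.0, in NRRA. Cdkn2a stood at 50.8 ± 1.66, Cdkn2b at 38.0 ± 2.27, Trp53 at 31.8 ± 0.156 and Cdkn2d at 9.96 ± 0.296 CPM per kilobase in NRRA. The same 5 genes were thus above the other 3 in both media.

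The summed level of the 4 INK4 genes per length was 131 CPM per kilobase in both Veh libraries, against 99.5 and 101 in NRRA. Within it, Cdkn2c and Cdkn2d together took 2.39% and 3.44% in Veh and 11.2% and 11.8% in NRRA. Cdkn2a and Cdkn2b thus still made up most of the summed level of these genes in NRRA. The sum was lower in NRRA although Cdkn2c and Cdkn2d rose. Counts of Cdkn2a add the p19Arf transcript, which does not encode an INK4 protein, to that of p16Ink4a. These sums and shares are therefore of genes, and the part that encodes INK4 proteins is not known. Over the 6 inhibitor genes, with the same limit for Cdkn2a, the sum was 220 and 219 in Veh and 163 and 164 in NRRA. The share of Cdkn1a in it was 39.7% and 39.3% in Veh and 38.3% and 37.7% in NRRA. An exact permutation test of 2 against 2 libraries cannot give a two-sided p below 0.333, and the INK4 share and both sums were at that value.

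**Figure D3:**
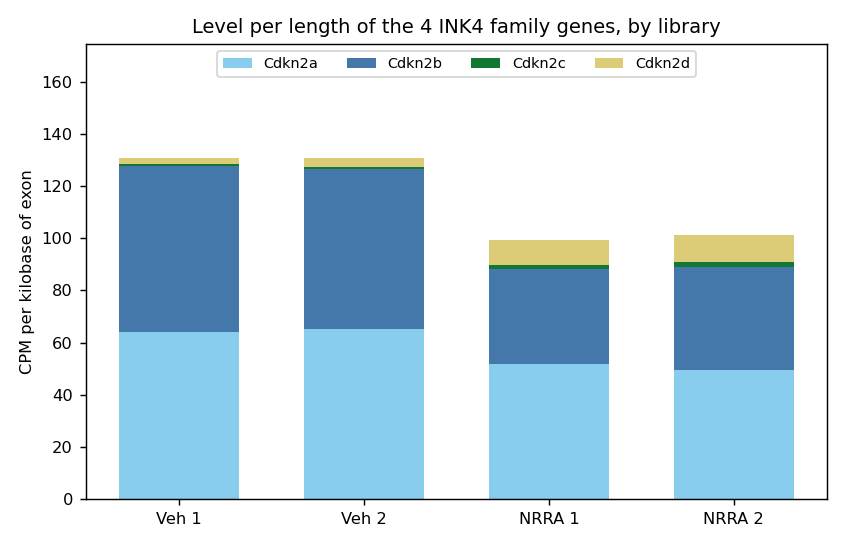
CPM per kilobase of exon (vertical axis, from 0) of Cdkn2a, Cdkn2b, Cdkn2c and Cdkn2d, stacked for each of the 4 libraries. The stacks reach 131 in both Veh libraries but only 99.5 and 101 in NRRA, with a larger Cdkn2d segment on top in NRRA. The Cdkn2a segment adds the transcripts of p16Ink4a and p19Arf.

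Trp53 was at 169 and 165 CPM in Veh and at 129 and 128 CPM in NRRA. The NRRA libraries were nearly equal and below both Veh libraries, with a log2 fold change of -0.38 (SE 0.033, n = 2 per group, edgeR adjusted p 2.15e-10). It is at 69580359 to 69591873 on chromosome 11, plus strand (ENSMUSG00000059552). A near-identical copy of 20.2% of its longest transcript exists in the pseudogene Trp53-ps, which was counted between 4 and 7 times in a library. Mdm2 (ENSMUSG00000020184, chromosome 10, 117688875 to 117710758, minus strand) was at 361 and 366 CPM in Veh and at 331 and 333 CPM in NRRA. The groups did not overlap, but the difference was the smallest of the 8, with a log2 fold change of -0.13 (SE 0.026, n = 2 per group, edgeR adjusted p 9.49e-05). When libraries were scaled by their total counts only, which moved the median log2 fold change of all genes to 0.090, that of Mdm2 was -0.041 (SE 0.026, edgeR adjusted p 0.178) and was not called. The 7 other genes kept their direction and call under that scaling.

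Ratios within a library do not depend on how libraries are scaled. The Mdm2 count was 2.14 and 2.21 times the Trp53 count in Veh and 2.56 and 2.60 times in NRRA. Relative to Cdkn1a, it was 1.16 and 1.20 in Veh and 1.49 and 1.52 in NRRA. The ratio of Mdm2 to each of them was thus higher in both NRRA libraries although its own level was not. Cdkn1a counts were 1.84 and 1.85 times those of Trp53 in Veh and 1.72 and 1.71 times in NRRA. None of these ratios overlapped between the groups, and each was at the smallest two-sided p of the exact permutation test, 0.333.

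Before the Mdm2 start, the upstream stretch is shown for comparison with that of Cdkn1a, as both genes are targets of p53 and only Cdkn1a held the p53 pattern. The best known p53 elements of Mdm2 lie in its first intron, outside this window. The stretch is chr10:117710759-117711008 on the minus strand, 5′ to 3′, with matches on either strand to GGGCGG, to CCAAT and to the forkhead site TGTTTAC of FOXO factors in capitals:
Mdm2 start: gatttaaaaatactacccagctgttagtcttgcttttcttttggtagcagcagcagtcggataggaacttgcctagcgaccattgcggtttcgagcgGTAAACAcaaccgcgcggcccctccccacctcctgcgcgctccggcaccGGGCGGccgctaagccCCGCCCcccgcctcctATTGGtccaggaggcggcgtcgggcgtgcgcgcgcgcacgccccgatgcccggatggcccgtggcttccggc
It held 2 GGGCGG, 1 CCAAT and 1 TGTTTAC, the last of which was in 3.17% of all windows and in no other window of the 8 genes. The E2F letters TTCGCGC and TTGGCGC, in 3.16% of all windows, were in none of the 11 windows.

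Around the members, 8 lists of genes of the same pathway were followed, with no test of a list as a whole. These lists too were chosen with earlier results of these data known. Their shares beside those of all genes therefore only describe. Of 45 p53 target genes, all tested, 24 were lower, 9 higher and 12 not called, with a median log2 fold change of -0.17. Without Cdkn1a and Mdm2, 22 of 43 (51.2%) were lower and 9 (20.9%) higher, beside 28.4% and 27.9% of all genes tested. Large falls at an average log2 CPM of 3 or more were in Pmaip1, which encodes the death-promoting protein NOXA, and in Ddit4, an inhibitor of mTORC1 signalling. Pmaip1 was at 138 and 133 CPM in Veh and at 34.6 and 33.5 CPM in NRRA, or -1.99 in log2 (SE 0.044). Ddit4 had a log2 fold change of -0.90. By the same limit, the highest were Gadd45a, a growth arrest gene, at 0.50, the apoptosome gene Apaf1 at 0.49 and the DNA repair nuclease gene Ercc5 at 0.46. Genes of this list thus moved in both directions, and the feeder marker sum given above was lower in the same NRRA libraries.

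Among 20 tested members of the p53 family and of its regulators, 10 were lower, 7 higher and 3 not called, with a median of -0.081. Without Trp53 and Mdm2, 8 of 18 (44.4%) were lower and 7 (38.9%) higher, beside the same 28.4% and 27.9% of all genes tested. With library size only, 6 of the 20 were lower. Besides Trp53, the lowest were the checkpoint kinase gene Chek2 (-0.33) and the p53 kinase gene Hipk2 (-0.32). The highest by the same rule were the deacetylase gene Sirt1 (0.54) and the acetyltransferase genes Kat5 (0.40) and Crebbp (0.35). Ep300 (-0.16), the gene of another acetyltransferase of p53, was lower, so that these enzymes did not move one way.

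The kinases and cyclins that INK4 proteins act on split as well. Cdk4 was at 281 ± 2.55 CPM in Veh and fell to 172 ± 2.80 CPM (SD, n = 2), and its log2 fold change of -0.71 was close to that of Cdkn2b. Cdk6 was at 92.5 ± 4.34 CPM in Veh and rose to 115 ± 1.98 CPM, which is 0.31 in log2. Of the D-type cyclins, Ccnd2 (-0.59) and Ccnd3 (-0.43) were lower and Ccnd1 (0.17) was higher. All 5 of these partners were called, 3 lower and 2 higher, in a comparison that called 56.4% of all genes tested.

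Of the 7 partners of the CIP/KIP proteins, 5 (71.4%) were higher, beside 27.9% of all genes tested. These were Cdk2 (log2 fold change 0.16), the E-type cyclins Ccne1 (0.33) and Ccne2 (0.61), and the A-type cyclins Ccna2 (0.18) and Ccna1 (2.58). Ccna1, the A-type cyclin of male meiosis, was scarce, at 0.701 and 0.706 CPM in Veh and at 3.32 and 5.18 CPM in NRRA. Pcna, which encodes the DNA clamp that p21 binds, was lower (-0.11), and Cdk1 was not called (-0.13, edgeR adjusted p 0.0535). The number of lower genes in this list was between 0 and 2 under other ways of processing.

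**Figure D4:**
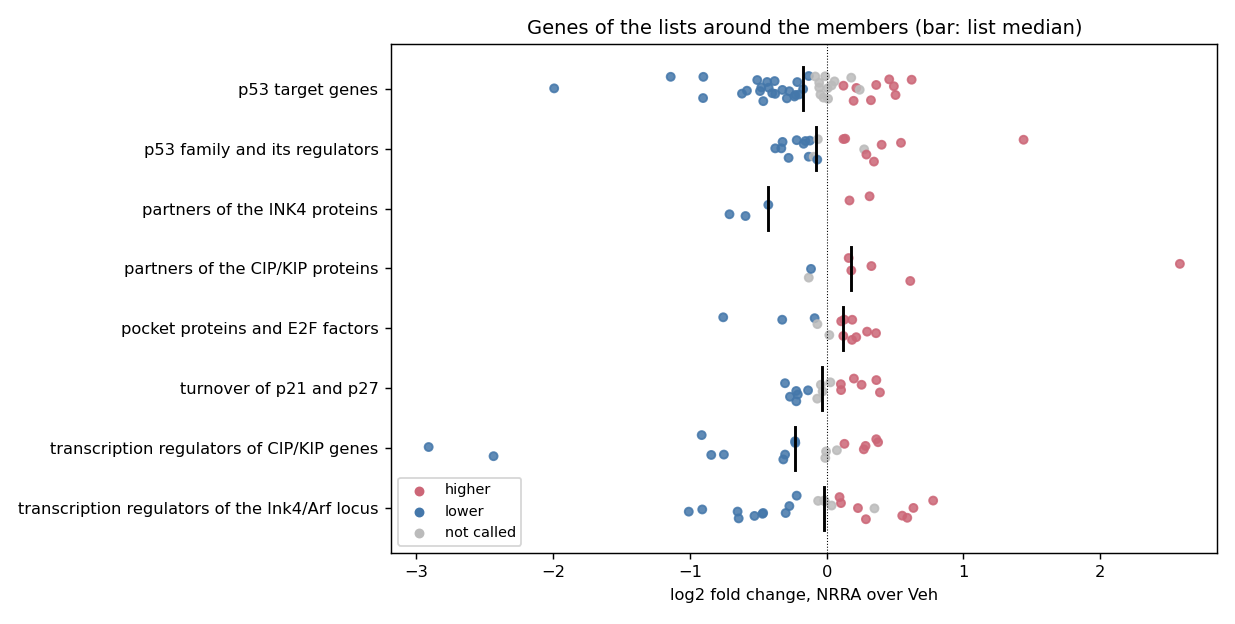
Log2 fold change of NRRA over Veh (horizontal axis) of each tested gene in 8 lists of the pathway, coloured by call, with the list median as a bar. The p53 target genes have a median of -0.17 and the CIP/KIP partners one of 0.18, and each list holds genes on both sides of 0.

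Downstream of the inhibitors, 8 of 13 pocket protein and E2F genes (61.5%) were higher and 3 (23.1%) lower, beside 27.9% and 28.4% of all genes tested. The number of higher ones was 4 with DESeq2 and 5 without Veh replicate 2 or without NRRA replicate 1. E2f6, a repressor of the E2F family, was at 88.6 ± 4.41 CPM in Veh and at 52.4 ± 0.207 CPM in NRRA (SD, n = 2). Its log2 fold change of -0.76 was the lowest, followed by E2f3 (-0.32) and the E2F partner gene Tfdp1 (-0.088). E2f5 (0.36), the pocket protein gene Rbl2 (0.30) and E2f7 (0.22) were the highest. Of 16 genes for the turnover of p21 and p27, 6 (37.5%) were higher and 6 (37.5%) lower, beside the same shares of all genes. The ubiquitin ligase gene Skp2 (-0.27) and its cofactor gene Cks1b (-0.30), which together mark p27 for degradation, were lower, as was Cks2 (-0.22). The genes of the other p27 ligase, Rnf123 (0.39) and Ubac1 (0.36), were higher, as was Fzr1 (0.26), an activator of the anaphase-promoting complex.

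Of 17 transcription regulators of CIP/KIP genes, 9 (52.9%) were lower and 5 (29.4%) higher, beside 28.4% and 27.9% of all genes tested, so that the higher share was near the background. Mycn, a proliferation factor of the Myc family, was at 102 ± 2.23 CPM in Veh and fell to 13.6 ± 0.236 CPM (SD, n = 2), which is -2.91 in log2. Zbtb16, which encodes the repressor PLZF of undifferentiated spermatogonia, had a log2 fold change of -2.43 and Tfap4, a repressor of Cdkn1a, one of -0.91. Mycn and Zbtb16 were the 2 genes of this list beyond 2-fold. Men1 (0.38), which acts on Cdkn1b, Klf4 (0.36), which acts on Cdkn1a, and Smad2 (0.28) were the highest.

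Of 23 transcription regulators of the Ink4/Arf locus, 10 (43.5%) were lower and 8 (34.8%) higher, beside 28.4% and 27.9% of all genes tested. The lowest were Tbx3 (-1.01) and Twist1 (-0.91), both known as repressors of the locus and both also expressed by mesenchymal cells, and Bach2 (-0.65). The Polycomb genes Ring1 (0.78) and Rnf2 (0.59) were among the highest, but the Polycomb genes Cbx7 (-0.47) and Bmi1 (-0.30) were lower, and Ezh2 and Eed were not called (-0.018 and -0.014). Rnf2, which encodes the main ubiquitin ligase for histone H2A in Polycomb complexes, was at 75.4 ± 2.67 CPM in Veh and at 113 ± 4.18 CPM in NRRA (SD, n = 2).

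Genes with the most similar profile over the 4 libraries were named by the smallest distance between centred log2 CPM, over the 11326 genes whose log2 CPM averaged 3 or more. For Cdkn1a these were mt-Nd1 and Kif2a, for Cdkn1b Myadm and Aagab, for Cdkn2a Polg2 and Gpat4, and for Cdkn2b Gm21992 and Parvb. Trp53 was nearest to Kmt2d and Tex19.1, and Mdm2 to Hnrnpl and Sgo1. For Cdkn2c they were Ulbp1 and Gm10010, and for Cdkn2d Ildr2. The nearest gene was at a distance of 0.090 for Cdkn2d and 0.088 for Cdkn2c, against 0.022 for Cdkn1b, 0.024 for Cdkn2b and 0.0040 for Mdm2. With 4 libraries in 2 groups, a small distance mostly reflects a log2 fold change of like size.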

How the data were processed

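The 4 libraries were analysed from the gene-level table of raw counts that the authors deposited. Per the labels, the processing notes name bcl2fastq, STAR 2.6.1c, featureCounts 1.6.4 and the build mm10. The annotation release and the strand setting were not given in the sources used here. The methods describe a stranded oligo-dT preparation with a Tecan kit, and the labels an Illumina TruSeq kit. Reads of overlapping genes could therefore be assigned in ways that change single values. Groups and replicate numbers were taken from the sample titles. The count columns of Veh replicates 1 and 2 carry the next higher number, as in the sample descriptions.

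NRRA was compared with Veh with edgeR 4.0.16 in R 4.3.3 (filterByExpr, TMM, robust quasi-likelihood F test), with Benjamini-Hochberg adjustment over all genes tested and a threshold of 0.05. The SE of a log2 fold change was derived from the F statistic. CPM were counts scaled to TMM-adjusted library sizes, with a prior count of 2 for log2 CPM. TMM factors were between 0.969 and 1.03. A count of 3, taken as the floor, was between 0.0921 and 0.111 CPM in a library. Counting error alone is covered by it, since PCR copies were not told apart. Within a group, libraries differed beyond read sampling, with a chi-square per degree of freedom of 2.45 between the Veh and 1.99 between the NRRA libraries, and were counted separately. The biological coefficient of variation was 2.61%. The test was tried on simulated data with 200 changed genes. That is far fewer than the 11406 called here, so the trial does not give the error rate of this comparison. Gene positions and exon lengths were taken from GENCODE M21 (GRCm38), in which 99.7% of the identifiers were found. Near-identical stretches were those of 95% identity or more over 100 bases or more by BLAST. Promoter windows were the 250 bases before each RefSeq start, found for all 8 genes, and only bases outside annotated exons are printed.

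The members and lists were chosen with earlier results of these data known. Named genes were the members, every gene of a list of 7 or fewer, and of longer lists the 3 highest and the 3 lowest called genes by log2 fold change whose log2 CPM averaged 3 or more, and the 2 nearest genes of each member. Cdkn1c, Ep300, Nanos3, Utf1, Tex15, Sohlh1, Cbx7, Bmi1, Ezh2, Eed and the p53 pattern were added after values or sequences had been seen. Some genes that this rule names are not reported here. Trp53rk was not matched in the table. Alternatives were library size only, RLE and upper-quartile scaling, other filters on low counts, DESeq2 1.42.0, limma-voom (limma 3.58.1), no robust estimation, a replicate block, leaving out each library and another gene length.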

Additional observations from a re-analysis of the deposited data

How the results depend on the processing

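Over 13 alternatives and 8 genes, 103 of 104 log2 fold changes held in direction and call. The exception was Mdm2, at -0.041 (SE 0.026, edgeR adjusted p 0.178) with library size only. Without single libraries the log2 fold changes ranged from -0.49 to -0.47 for Cdkn1a, -0.56 to -0.49 for Cdkn1b, -0.38 to -0.31 for Cdkn2a, -0.78 to -0.66 for Cdkn2b, 0.70 to 1.04 for Cdkn2c, 1.50 to 2.07 for Cdkn2d, -0.39 to -0.36 for Trp53 and -0.14 to -0.12 for Mdm2. In those fits an arm with 1 library is assumed to vary like the other. Library size only gave 6962 higher and 4593 lower genes, against 5654 and 5752, and 6 lower genes among the p53 family and its regulators. Among the CIP/KIP partners, where 1 was lower, the number was 0 with library size only, 2 with at least 1 CPM in 2 libraries, 0 with DESeq2 and 2 with the replicate block, and 0 to 2 without single libraries. Leaving out Veh replicate 1 gave 2, and leaving out Veh replicate 2 or NRRA replicate 1 gave 0. Higher pocket protein and E2F genes numbered 4 with DESeq2, 5 without Veh replicate 2 and 5 without NRRA replicate 1, against 8. The causes were not tested.

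Replicate numbers are shared between the groups, but the labels tie them to nothing. The deviations of same-numbered libraries correlated at 0.029 over 11326 genes, with only 2 pairs. With the replicate block, 5772 genes were higher and 5836 lower, and all 8 genes kept their call. For Cdkn1b, Cdkn2c and Cdkn2d, the members with the fewest counts at 56 to 500 in a library, counting error limits the precision.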
